A study of Homo sapiens with 6 samples.

Results

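Breast cancer stem-like cells (BCSCs) are the fraction of a tumour that forms spheres and new tumours, and they are followed with a small set of marker genes. This set held 10 genes, CD44, CD24, ALDH1A1, ALDH1A3, PROM1, SOX2, SOX9, KLF4, BMI1 and ABCG2, taken by gene symbol from the 27754 genes of the deposited count files. All 10 symbols were present in every file. The cells were T47D, a luminal-like, hormone receptor-positive human breast cancer line grown in adherent culture in RPMI with serum. mRNA was sequenced from 3 control libraries (normoxia, 20% O2) and from 3 libraries of cells held in a hypoxia chamber (0.5% O2 on the labels, 48 h). The study's text gives another O2 level for hypoxia than the labels, and the label is used here. T47D is 1 established line, and all libraries came from whole cultures, so neither condition contains sorted stem-like cells. The replicates are numbered 1 to 3 in each condition, and the labels do not say whether they came from separate cultures. The study's text describes its data in general as coming from independent experiments and its hypoxia and normoxia samples as paired. The p-values measure the spread between these libraries.

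The markers fall into several kinds of molecule. CD44 is a surface receptor for hyaluronan, and CD24 is a small, heavily glycosylated surface protein held by a lipid anchor. Breast cancer cells with much CD44 and little CD24 on their surface are the classical BCSC gate. ALDH1A1 and ALDH1A3 are cytosolic aldehyde dehydrogenases that make retinoic acid, and their activity is the other common BCSC assay. PROM1 (CD133) is a membrane protein of cell protrusions. SOX2, SOX9 and KLF4 are DNA-binding transcription factors, and SOX2 and KLF4 belong to the set that reprograms somatic cells to pluripotency. BMI1 is a subunit of Polycomb repressive complex 1, which silences genes through histone H2A ubiquitination. ABCG2 is an ATP-driven efflux pump that exports drugs and dyes. Low O2 stabilizes the HIF transcription factors, which bind short DNA elements with an ACGTG or GCGTG core.

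The libraries held between 32989104 and 89883409 counts, the largest being hypoxia replicate 3, and the detection floor of 3 counts was 0.0334 to 0.0909 CPM (read counts scaled to library size) on the raw totals. All other CPM values are TMM-normalized. Where values of single libraries are given, they follow the order of replicates 1, 2 and 3. The 8 hypoxia-responsive genes used as a check, among them VEGFA and CA9, were all higher in hypoxia, with a summed level of 141 to 170 CPM in normoxia and 1918 to 2017 CPM in hypoxia. All 15 luminal markers had at least 10 counts in every library. In hypoxia 7 of them were lower and 2, ELF3 and TFF1, higher. The hormone receptors ESR1 and PGR were among the lower, by 1.86 and 2.93 on the log2 scale. Across all tested genes, 59.5% were called in either direction (30.4% higher and 29.1% lower). The luminal markers were near this share in either direction together, but their calls were mainly lower, whereas those of all genes were nearly even. The summed level of the luminal markers was between 15956 and 19948 CPM in normoxia and between 11596 and 14684 CPM in hypoxia, most of it KRT8, KRT18 and KRT19. Replicate 3 of both conditions stood apart. Vimentin (VIM), a marker of mesenchymal-like cells, had 7, 12 and 395 counts under normoxia, and 35, 35 and 1001 under hypoxia. Of 15 basal or mesenchymal-like markers, 6 reached 10 counts in every library and 5 were higher in hypoxia. Their summed level was 320 to 324 CPM in normoxia and 449, 453 and 551 CPM in hypoxia, most of it LGALS1 and CDH3. Fibroblast markers summed to 84.2 to 95.9 CPM in normoxia and 77.4 to 99.7 CPM in hypoxia, nearly all of it COL1A1, with PDGFRA at 0 counts. Of these 8 markers 1 was higher and 0 lower. The higher one was PDGFRB, with 0, 0 and 3 counts in normoxia and 14, 18 and 28 in hypoxia. Leukocyte markers summed to at most 3.44 CPM in normoxia and 13.3 CPM in hypoxia (3 of 6 higher), although PTPRC, which defines leukocytes, had 0 counts in normoxia and at most 5 in hypoxia. Endothelial markers summed to at most 0.656 CPM. The part of these markers in the results below was not tested, and the calls of the stem cell markers are given with and without the libraries numbered 3 where these change them. With the replicate block, KRT8 and KRT18 were also lower and CDH1, TFF3, CAV1 and CD14 also higher.

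The counting itself limited several of the markers. The files list CD24 under chromosome Y (21152526 to 21438350, reverse strand, hg19), although RefSeq places the gene on chromosome 6 in the newer GRCh38 assembly. Of the 2452 windows of 50 bases in its counted exons, 11.6% occurred elsewhere in GRCh37, on nearly every other chromosome and on chromosome 15 most often. The other 113 genes listed on chromosome Y alone had at most 1 count in any library. CD24 had between 25043 and 76005 counts. BMI1 (chromosome 10, 22610139 to 22620414) shares 85.8% of its counted bases with COMMD3-BMI1, a read-through gene on the same strand. COMMD3-BMI1, every counted base of which is shared, had 0 counts in all 6 libraries. Across the files, 397 of 445 genes with every base shared with a gene of the same strand had 0 counts in all libraries, against 19.7% of the 21587 genes that share no base. If reads that match both genes were left uncounted, the BMI1 count rests on the other 487 of its 3430 bases and is not a level of the whole transcript. ALDH1A3 (chromosome 15, 101419897 to 101456830) shares 47.5% of its counted bases with LOC101927751 on the opposite strand. That antisense gene had at most 27 counts, against 678 to 2993 for ALDH1A3. CD44 (chromosome 11, 35160417 to 35253949), ALDH1A1 (chromosome 9, 75515578 to 75568233), PROM1 (chromosome 4, 15969849 to 16085623), SOX2 (chromosome 3, 181429712 to 181432223), SOX9 (chromosome 17, 70117161 to 70122560), KLF4 (chromosome 9, 110247133 to 110252001) and ABCG2 (chromosome 4, 89011416 to 89152778) shared no counted base with another gene. At most 4.38% of their 50-base windows occurred elsewhere, the highest share being that of PROM1. For BMI1 the share was 8.39%, on chromosomes 2 and X. Counts per gene do not separate isoforms, such as the standard and variant forms of CD44.

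The markers did not move together. In edgeR's quasi-likelihood test on all 15657 genes that passed the filter on low counts, 9 of the 10 markers could be tested. KLF4, SOX9 and PROM1 were higher in hypoxia, CD24 and SOX2 were lower, and CD44, ABCG2, ALDH1A3 and BMI1 did not pass an adjusted p of 0.05. ALDH1A1 was near 0 in all libraries. The 5 called markers of 9 compare with 59.5% of all tested genes called in either direction (30.4% higher and 29.1% lower), so the share of markers called was near that of genes at large. With upper-quartile factors in place of TMM, 64.5% of the called genes were higher, against 51.1% with TMM, and ABCG2 was called higher as well. For 6 of the 9, the CPM ranges of the conditions did not overlap, against 67.3% of all tested genes. When the replicate number was added to the fit as a block, CD44 passed as well, giving 4 higher and 2 lower, against 71.8% of all tested genes (36.6% higher and 35.2% lower). Without both libraries numbered 3, 4 markers were higher and 3 lower, against 71.2% of genes (36.4% higher and 34.8% lower). In RNA of whole cultures, fewer cells with a transcript and less transcript per cell cannot be told apart.

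**Figure D1:**
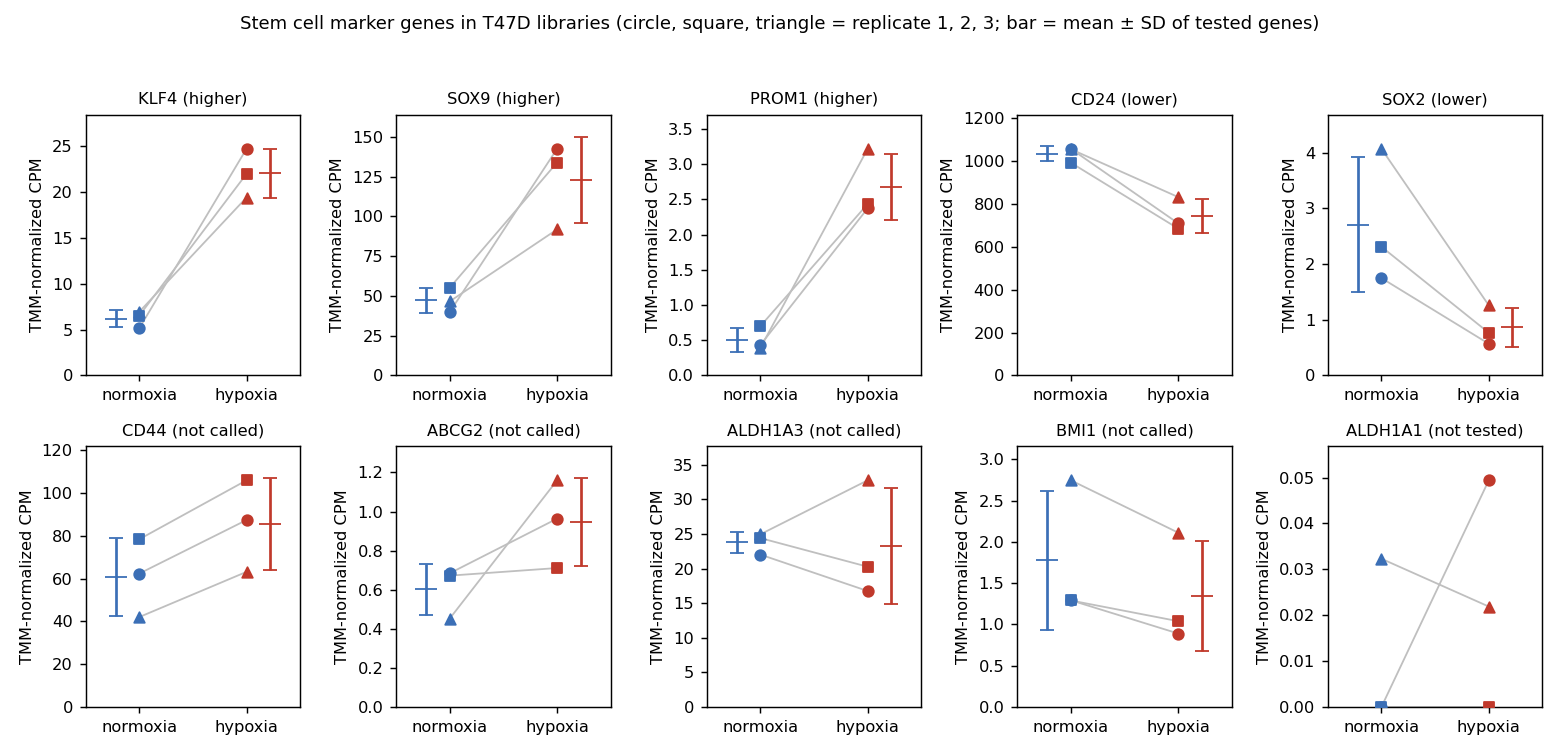
TMM-normalized CPM of the 10 marker genes (vertical axes, linear, from 0) in normoxia (blue) and hypoxia (red), with a symbol for each library, grey lines between libraries of the same replicate number, and the mean ± SD of 3 libraries for each tested gene. The conditions are separate for KLF4, SOX9, PROM1, CD24, SOX2 and ABCG2, and they overlap for CD44, ALDH1A3, BMI1 and ALDH1A1.

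The pair of surface proteins that defines the classical gate was examined first. CD24 was by far the most abundant marker. It measured 1057, 992 and 1055 CPM in normoxia and 709, 685 and 832 CPM in hypoxia. Every hypoxia library was below every normoxia library. CD24 fell from 1034 ± 36.9 to 742 ± 78.7 CPM (SD, n = 3). The log2-fold change between the conditions (log2FC, hypoxia over normoxia, with its standard error SE) was -0.48 (SE 0.09, adjusted p = 0.00330 by edgeR), a level 0.717 times that of normoxia. The decrease was smallest in the pair numbered 3, at -0.34 on the log2 scale, against -0.58 and -0.53 in the other pairs.

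CD44 measured 62.4, 78.4 and 42.0 CPM in normoxia and 87.5, 106.0 and 63.2 CPM in hypoxia. The conditions overlapped, since hypoxia replicate 3 was below normoxia replicate 2, and replicate 3 was the lowest library of each condition. Between libraries of the same number, CD44 was higher in hypoxia by 0.49, 0.43 and 0.59 on the log2 scale. The means were 60.9 ± 18.2 and 85.6 ± 21.5 CPM (SD, n = 3), log2FC 0.49 (SE 0.25, adjusted p = 0.124), which did not pass the threshold. With the replicate block it was 0.50 (SE 0.06, adjusted p = 1.10e-04), and without both libraries numbered 3 it was 0.46 (adjusted p = 9.71e-04). It also passed without normoxia replicate 2 (0.70, adjusted p = 0.0489) and without hypoxia replicate 3 (0.66, adjusted p = 0.0405), and with 1 library left out it ranged from 0.28 to 0.70. The change was therefore positive in every fit. Its call depended on how the difference between replicate numbers entered the fit and on which libraries were included.

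The ratio of CD44 to CD24 was then taken within each library, per kilobase of counted exon. On the log2 scale it was -5.47, -5.05 and -6.04 in normoxia and -4.41, -4.08 and -5.11 in hypoxia. Hypoxia replicate 3 lay just below normoxia replicate 2, and all other hypoxia libraries were above every normoxia library. The mean was -5.52 ± 0.50 in normoxia and -4.53 ± 0.52 in hypoxia (SD, n = 3), which is 45.9 CD24 transcripts per CD44 transcript in normoxia and 23.1 in hypoxia if counts per kilobase are read as transcript numbers. The difference of 0.99 gave p = 0.20 in a two-sided exact permutation test, where 3 libraries against 3 cannot go below 0.10. Within same-numbered pairs the ratio was higher in hypoxia by 1.06, 0.97 and 0.93, with an SD of 0.07 that was far below the spread within a condition. The exact sign-flip test of these pairs gave p = 0.25, the smallest value that 3 pairs can give. CD24 remained the more abundant transcript in every library. The ratio describes mRNA of the whole culture and not the share of cells in the gate.

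**Figure D2:**
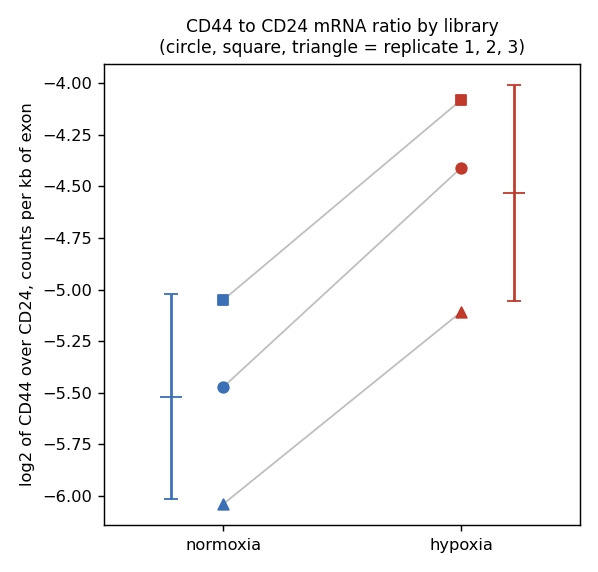
Log2 of the ratio of CD44 to CD24 counts per kilobase of counted exon (vertical axis) in each normoxia (blue) and hypoxia (red) library, with the mean ± SD of 3 libraries and grey lines between libraries of the same replicate number. Each line rises by between 0.93 and 1.06, and replicate 3 is the lowest library of each condition.

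Of the enzymes read by the aldehyde dehydrogenase assay, ALDH1A1 was at the limit of detection. It had 0, 0 and 1 counts under normoxia, and 2, 0 and 2 under hypoxia. None of these exceeds 3 counts per library, so no change was detectable at this depth and no fold is given. ALDH1A3 was clearly expressed, with 22.0, 24.4 and 24.9 CPM under normoxia, and 16.7, 20.3 and 32.7 CPM under hypoxia. Hypoxia replicates 1 and 2 were below all normoxia libraries and hypoxia replicate 3 was above them all. The log2FC was -0.03 (SE 0.23, 95% interval -0.55 to 0.50, adjusted p = 0.930), and the blocked value was -0.08 (adjusted p = 0.632). Without hypoxia replicate 3 it was -0.37 (adjusted p = 0.0296), and without both libraries numbered 3 it was -0.32 (adjusted p = 0.0128), so this library decided the call for ALDH1A3.

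PROM1 was scarce in normoxia, at 0.431, 0.699 and 0.388 CPM (17, 26 and 12 counts), and reached 2.37, 2.43 and 3.22 CPM (96, 89 and 294 counts) in hypoxia. The conditions were well separated. It rose by log2FC 2.40 (SE 0.29, adjusted p = 3.63e-04), the largest change among the 9 tested markers and a 5.27-fold increase in the fit. The means were 0.506 ± 0.169 and 2.67 ± 0.471 CPM (SD, n = 3), so PROM1 stayed at a low level in both conditions.

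KLF4 measured 5.12, 6.50 and 6.91 CPM in normoxia and 24.7, 22.0 and 19.4 CPM in hypoxia. All hypoxia libraries were well above all normoxia libraries. KLF4 rose from 6.18 ± 0.941 to 22.0 ± 2.65 CPM (SD, n = 3), log2FC 1.83 (SE 0.15, adjusted p = 9.40e-05) and a 3.56-fold increase in the fit. SOX9, a transcription factor of luminal progenitor cells in the mammary gland, measured 39.9, 55.1 and 46.5 CPM in normoxia and 142, 134 and 91.8 CPM in hypoxia. Its lowest hypoxia library, replicate 3, was still above every normoxia library. SOX9 rose from 47.2 ± 7.64 to 122.7 ± 27.1 CPM (SD, n = 3), log2FC 1.38 (SE 0.18, adjusted p = 5.78e-04).

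SOX2 went the other way. It measured 1.75, 2.31 and 4.07 CPM in normoxia and 0.568, 0.765 and 1.26 CPM in hypoxia, at 23 to 126 counts per library. Replicate 3 was the highest library of each condition, and the conditions did not overlap. SOX2 fell by log2FC -1.59 (SE 0.40, adjusted p = 0.0101), to 0.332 times its normoxic level in the fit. Within same-numbered pairs the change was -1.62, -1.59 and -1.69.

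BMI1 measured 1.29, 1.29 and 2.75 CPM in normoxia and 0.889, 1.04 and 2.11 CPM in hypoxia. Replicate 3 was the highest library of each condition and the conditions overlapped. The log2FC was -0.35 (SE 0.43, 95% interval -1.33 to 0.64, adjusted p = 0.508, and 0.0888 with the block). ABCG2 measured 0.684, 0.672 and 0.452 CPM in normoxia and 0.963, 0.711 and 1.16 CPM in hypoxia, at 14 to 106 counts per library. The ranges were separate, yet hypoxia replicate 2 exceeded its same-numbered library by only 0.08 on the log2 scale. The log2FC of 0.66 (SE 0.29, 95% interval -0.02 to 1.33, adjusted p = 0.0850, and 0.0848 with the block) did not pass.

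**Figure D3:**
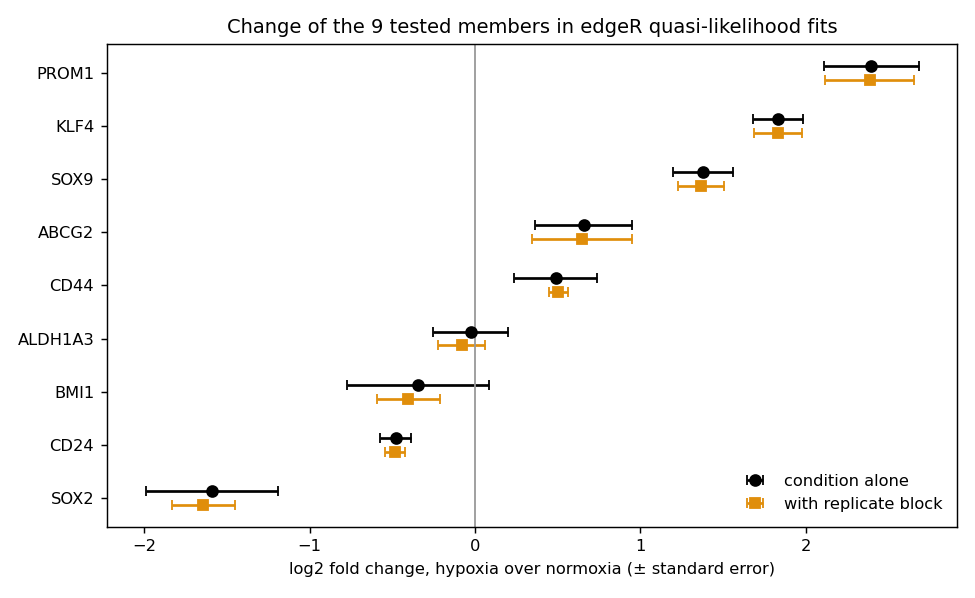
Log2FC (hypoxia over normoxia, horizontal axis) with its SE for the 9 tested marker genes in edgeR's quasi-likelihood fit, with condition alone (black circles) and with the replicate block (orange squares). The estimates of each gene lie close together, and the block narrows the error of CD44 from 0.25 to 0.06.

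Levels were compared between genes per length, as length-scaled shares of each library (TPM) computed from the counts and the counted exon lengths. In normoxia the order was CD24 at 990 ± 29.7 TPM (SD, n = 3), SOX9 at 29.3 ± 5.26, CD44 at 22.5 ± 7.41, ALDH1A3 at 16.1 ± 0.960, KLF4 at 5.04 ± 0.700, SOX2 at 2.61 ± 1.07, BMI1 at 1.25 ± 0.541, PROM1 at 0.289 ± 0.105, ABCG2 at 0.268 ± 0.0659 and ALDH1A1 at 0.0107 ± 0.0184 TPM. The ranges of SOX9 and CD44, of CD44 and ALDH1A3, of SOX2 and BMI1, and of PROM1 and ABCG2 overlapped between these neighbours. In hypoxia, CD24 stayed first (770.5 ± 54.7 TPM), and SOX9 (83.2 ± 20.7 TPM) no longer overlapped CD44 (34.2 ± 9.51 TPM). KLF4 (19.6 ± 2.90 TPM) moved above ALDH1A3 (17.0 ± 5.52 TPM), with overlapping ranges. PROM1 (1.64 ± 0.230 TPM) moved above BMI1 (1.03 ± 0.472 TPM), with overlapping ranges, and above SOX2 (0.905 ± 0.340 TPM), which overlapped BMI1, and ABCG2 reached 0.453 ± 0.0950 TPM. The place of BMI1 in this order rests on its full length. Divided by its 487 unshared bases, BMI1 would stand at 8.81 ± 3.81 TPM in normoxia and 7.26 ± 3.32 TPM in hypoxia.

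The RefSeq promoter windows of the markers (250 bases before to 50 after a transcript start, GRCh38.p14) were searched on both strands for ACGTG and, separately, for GCGTG, the core letters of HIF elements. ACGTG was present in 21.4% and GCGTG in 36.5% of all 35116 windows in the table. ACGTG was found in the 1 window of KLF4, in 2 of 4 windows of PROM1, in the 1 window of CD44, in 1 of 2 windows of BMI1 and in 2 of 5 windows of ABCG2. These 2 windows of ABCG2 overlap and hold the same site. It was not in the windows of CD24 (3), SOX2 (1), ALDH1A1 (1) or ALDH1A3 (1). GCGTG was found in 3 windows of PROM1, 3 of ABCG2 (2 of them overlapping, with the same sites), 2 of BMI1, 1 of CD24 and 1 of ALDH1A3. RefSeq windows were matched by symbol for 9 of the 10 markers, all but SOX9. The ACGTG matches before a transcript start are given below for KLF4 and PROM1, the markers with the largest increases, on the strand of the gene with the 5 core letters or their reverse complement in capitals. They lie 156 bases before the start in KLF4, and 77 and 130 bases before 2 different starts of PROM1. The KLF4 match, with the letter before it, reads the same on both strands, so it was found on each, as were the ACGTG matches of BMI1 and ABCG2. A match of letters is not a binding site, and binding was not measured here.
KLF4 (chr9:107489909-107489937, reverse strand): tcccccgcccccACGTGcgccgagtttgt
PROM1, first start (chr4:16084084-16084112, reverse strand): cgccccagggctACGTGgcgaagcagctc
PROM1, second start (chr4:16083843-16083871, reverse strand): cctgcctcccgcCACGTccgagggtccgg

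Genes related to each marker were then counted in the same fit, beside the 59.5% of all tested genes that were called and the median log2FC of 0.03 of all tested genes. The share called was 71.8% with the replicate block and 71.2% without both libraries numbered 3, and upper-quartile factors moved the median to 0.19. For the hyaluronan and CD44 axis, 6 of 17 tested genes were higher and 4 lower, with a median of 0.15, and with the replicate block HAS3 was lower as well. ADAM17 and ADAM10, proteases that shed surface proteins including CD44, rose by 0.55 and 0.35 (adjusted p = 0.00129 and 0.0213), although ADAM10 did not pass without hypoxia replicate 1 or 2. The hyaluronidases HYAL2 and HYAL3 fell by 0.93 and 1.06 on the log2 scale (adjusted p = 8.39e-04 and 0.00113). The splicing factors ESRP1 and ESRP2, which promote epithelial isoforms of CD44, moved in opposite directions, with log2FC values of 0.26 (adjusted p = 0.0330) and -0.61 (adjusted p = 0.00282). These factors were named after their values were seen, and ESRP1 did not pass without normoxia replicate 1 or 2 or hypoxia replicate 1 or 3. The CD44 ligand SPP1 had 0 counts in all libraries, and the hyaluronan synthase HAS2 had at most 2.

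In the aldehyde dehydrogenase family, 15 of 19 genes were tested, of which 2 were higher and 8 lower, with a median log2FC of -0.31. With upper-quartile factors 3 were higher and 7 lower, with the replicate block 3 and 8, and without both libraries numbered 3, 3 and 10. Mitochondrial ALDH1L2, an enzyme of folate metabolism, rose from 15.7 ± 5.15 to 78.2 ± 3.24 CPM (SD, n = 3), log2FC 2.31 (SE 0.22, adjusted p = 1.57e-04). ALDH3B1, which oxidizes lipid aldehydes, rose by 0.73 (adjusted p = 0.00746). ALDH6A1, an enzyme of valine breakdown, fell from 108 ± 11.4 to 50.5 ± 2.30 CPM, log2FC -1.09 (adjusted p = 1.19e-04), and ALDH1B1 fell by 1.19 on the log2 scale (adjusted p = 4.79e-04). Of ALDH1A1, ALDH1A2 and ALDH1A3, only ALDH1A3 was tested, and ALDH1A2 had at most 1 count.

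Most pluripotency factors had too few counts to test, and 6 of 19 were tested. Among those untested, SALL4 had 0 counts in every normoxia library and 17, 7 and 30 in hypoxia. KLF4 was the 1 gene called higher, SOX2 and LIN28A were lower, and the replicate block gave 2 higher and 2 lower. LIN28A, an RNA-binding protein that blocks maturation of let-7 microRNAs, fell from 42.4 ± 8.69 to 17.6 ± 2.30 CPM (SD, n = 3), log2FC -1.27 (SE 0.17, adjusted p = 5.72e-04). MYC had log2FC 0.31 (adjusted p = 0.0731, and it passed with the replicate block, with upper-quartile factors and without normoxia replicate 3). NANOG had at most 3 counts, NODAL at most 3 and POU5F1 at most 1 in any library, all too few to test. SNAI1, a transcription factor of the epithelial-mesenchymal transition, had means of 1.52 ± 0.584 and 2.07 ± 0.509 CPM (SD, n = 3) in normoxia and hypoxia, log2FC 0.46 (adjusted p = 0.255).

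Relatives of the 3 transcription factors differed between families. In the SOX family, 9 of 20 genes were tested, with 3 higher and 3 lower. With the replicate block 4 were higher and 3 lower, and without both libraries numbered 3 the numbers were 4 and 4. Upper-quartile factors gave 5 higher and 3 lower. SOX4 rose from 80.1 ± 7.07 to 172 ± 22.3 CPM (SD, n = 3), log2FC 1.10 (adjusted p = 2.06e-04). SOX5 and SOX12 fell by 1.69 and 0.43 on the log2 scale (adjusted p = 0.0211 and 0.00380), although SOX5 did not pass without normoxia replicate 1 or 2. In the KLF family, 15 of 17 genes were tested, with 11 higher and none lower, and the median log2FC was 1.03. The background share of genes called higher was 30.4%. KLF6 rose from 44.2 ± 2.48 to 94.5 ± 4.52 CPM and KLF10 from 49.5 ± 0.505 to 121 ± 18.1 CPM (SD, n = 3), log2FC values of 1.09 and 1.29 (adjusted p = 6.54e-05 and 1.19e-04). KLF4 had the largest log2FC of the 15. With DESeq2 size factors 10 of the family were higher and with upper-quartile factors 11, with none lower in either, whereas without both libraries numbered 3, 11 were higher and 1, KLF9, was lower. KLF9, KLF14, KLF15 and KLF16 were not called, with log2FC values between -0.26 and -0.05, and KLF16 was lower with the replicate block.

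**Figure D4:**
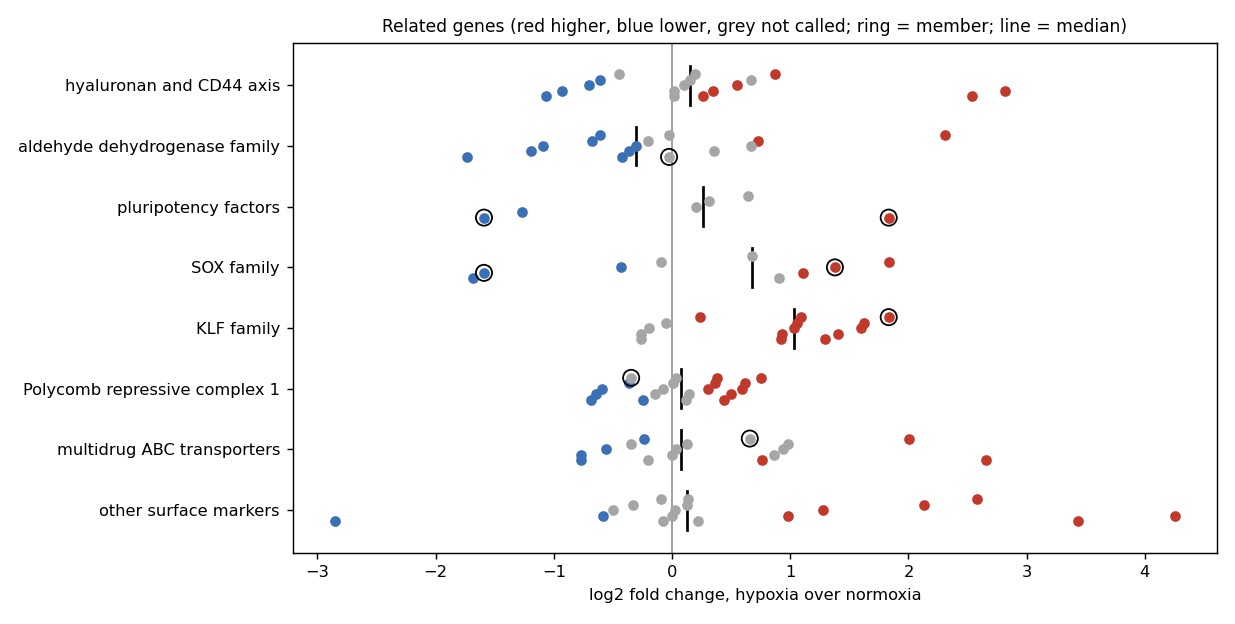
Log2FC (hypoxia over normoxia, horizontal axis) of each tested gene in the 8 lists of related genes, coloured by its call in edgeR's quasi-likelihood test, with rings around the markers themselves and a line at the median of each list. The KLF family has 11 genes to the right of 0 called higher and none called lower, whereas the aldehyde dehydrogenase family has 8 called lower.

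All 20 genes of Polycomb repressive complex 1 were tested, with 8 higher, 5 lower and a median log2FC of 0.08. Upper-quartile factors gave 9 higher and 3 lower. The direct partner of BMI1, the ubiquitin ligase RNF2, had log2FC 0.01 (adjusted p = 0.944), whereas its paralog RING1 fell by 0.37 on the log2 scale (adjusted p = 0.0154) but did not pass with upper-quartile factors or without hypoxia replicate 1 or 2. PCGF2, the closest relative of BMI1, had log2FC 0.15 (adjusted p = 0.186) and was called higher with upper-quartile factors. These 3 genes were named after their values were seen. RYBP and PHC2 rose by 0.75 and 0.44 (adjusted p = 4.78e-04 and 0.00285), and CBX6 and PCGF6 fell by 0.59 and 0.68 (adjusted p = 5.18e-04 and 9.68e-04) on the log2 scale.

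Of the ABC transporters linked to drug efflux, 16 of 18 were tested, with 3 higher, 4 lower and a median log2FC of 0.08. With upper-quartile factors, which also shifted genes at large, the split was 6 higher and 2 lower. It was 5 and 5 both with the replicate block and without both libraries numbered 3. ABCC3 rose from 11.4 ± 5.70 to 46.1 ± 4.15 CPM (SD, n = 3), log2FC 2.01 (SE 0.34, adjusted p = 0.00160), and ABCC1 from 66.8 ± 4.74 to 113 ± 2.82 CPM, log2FC 0.76 (adjusted p = 2.13e-04). ABCA3 and ABCB6 fell by 0.77 and 0.56 on the log2 scale (adjusted p = 5.78e-04 and 0.00327). ABCB1, the classical multidrug pump, had 0 to 1 counts in normoxia and 2 to 13 in hypoxia and was not tested.

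Among other surface markers used for BCSCs, 17 of 21 were tested, with 6 higher, 2 lower and a median log2FC of 0.13. With the replicate block 7 were higher and 3 lower, and without both libraries numbered 3, 6 and 5. Upper-quartile factors gave 9 higher and 2 lower. PROCR, the endothelial protein C receptor, rose from 3.68 ± 0.663 to 16.1 ± 3.39 CPM (SD, n = 3), log2FC 2.13 (SE 0.20, adjusted p = 1.52e-04). PODXL, a sialomucin, rose by 0.98 (adjusted p = 5.71e-04). ST8SIA1, the synthase of ganglioside GD3, fell from 4.99 ± 2.31 to 0.642 ± 0.373 CPM, log2FC -2.85 (SE 0.46, adjusted p = 0.00136). PROM2, the paralog of PROM1, fell by 0.59 on the log2 scale (adjusted p = 0.00358), the opposite direction to PROM1. Per length it was the more abundant of the pair in normoxia, at 66.0 ± 1.97 TPM against 0.289 ± 0.105 TPM for PROM1. The chemokine receptor CXCR4 and the R-spondin receptor LGR6, named after their values were seen, rose from low levels by 3.43 and 4.26 (adjusted p = 1.57e-04 and 2.51e-04), from 0.238 to 2.54 CPM and from 0.0922 to 1.80 CPM. EPCAM, CD47 and MUC1 had log2FC values between -0.07 and 0.03 and were not called. NT5E (CD73) had 0, 0 and 45 counts under normoxia, then 0, 1 and 106 under hypoxia, and so belonged to the transcripts found mainly in the libraries numbered 3.

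For each tested marker, the genes with the most similar log2 CPM over the 6 libraries were listed among up to 12665 genes that averaged 100 counts or more. These correlations describe 6 libraries in 2 conditions and are shared with many other genes. For CD44 they were ZNF780A and NSUN6 (Pearson's r of 0.996 and 0.995), and 184 genes exceeded 0.95. CD24 was most like NUP210 and UNC13B (r of 1.00 and 0.999, with 1935 genes above 0.95). KLF4 was most like GAL3ST2 and RAB33B, SOX9 like SEC14L5 and CSNK1A1, PROM1 like NOL3 and ABTB1, and SOX2 like SAXO2 and AP1S1, with r between 0.997 and 1.00. BMI1 was most like PLEKHA7 and MGAT1 (r of 0.999 and 0.994). The patterns of ALDH1A3 and ABCG2 were the least shared, with NEDD9 and ENTPD2 (r of 0.977 and 0.976) nearest to ALDH1A3, TRIM21 and GLS2 (r of 0.986 and 0.981) nearest to ABCG2, and 8 and 19 genes above 0.95.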

How the data were processed

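The authors sequenced stranded mRNA libraries of T47D cells (3 normoxia, 3 hypoxia), removed adapters with Skewer, and, per the labels, used FastQC 0.11.5, STAR 2.5.2a and featureCounts 1.5.1 with hg19 (GRCh37). They deposited raw counts per RefSeq gene, with the summed exon length of each gene. Whether strand was used, and how multi-mapped reads were handled, is not given in the sources used here. Other values deposited with the counts are exon coordinates.

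The software was edgeR 4.0.16 and DESeq2 1.42.0 under R 4.3.3, with matplotlib 3.10.9 under Python 3.11.15 for plots. The low-count filter was filterByExpr (minimum count 10, minimum total 15). The 15657 remaining genes were TMM-scaled and fitted by condition alone in edgeR's quasi-likelihood framework, and p-values were adjusted over all of them (Benjamini-Hochberg, threshold 0.05). Standard errors were derived as the absolute log2FC over the square root of that fit's F statistic, and intervals from them with a t quantile. The exact test of edgeR, which the methods of the study use, was kept as an alternative setting. Except for the detection floor, CPM values carry the TMM scaling, and TPM was computed from the counts and lengths.

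Same-numbered libraries deviated together from their condition means (correlations across genes of 0.338, 0.422 and 0.575). Libraries numbered 1 and 2 also correlated across numbers (0.277 and 0.243), and only unlike pairs with a library numbered 3 were negative (-0.376 to -0.466). These values set the libraries numbered 3 apart and say little about pairing among those numbered 1 and 2. In the block the numbers were taken to pair the libraries. The blocked value is given where it changes the call of a marker or the count of a list. The markers and the lists of related genes were chosen with earlier results of these data known. From each list, up to 2 genes each way with the smallest p and a mean of at least 100 counts were named, beside the markers, 4 genes of the study and the 2 genes most correlated with each marker. All other genes named in the text were picked after their values were seen. Reads carry no molecular identifiers, so limits from counts cover counting error only. Alternatives covered the normalization, the filter, the test, the replicate block, libraries left out and the threshold.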

Additional observations from a re-analysis of the deposited data

How the results depend on the processing

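CD24, PROM1, SOX2, SOX9 and KLF4 kept their direction and their call in all 13 alternatives (log2-fold changes between -0.57 and -0.32, 2.10 and 2.69, -2.02 and -1.18, 1.26 and 1.55, and 1.70 and 2.01). CD44 was higher in all 13, and it passed with the replicate block (0.50), without both libraries numbered 3 (0.46), without normoxia replicate 2 (0.70, adjusted p = 0.0489) and without hypoxia replicate 3 (0.66, adjusted p = 0.0405), with a range of 0.28 to 0.70 when 1 library was left out. The block changed no other marker's call. ALDH1A3 changed sign with upper-quartile factors (0.13) and without normoxia replicate 3 (0.01), hypoxia replicate 1 (0.16) or hypoxia replicate 2 (0.06), and was called lower without both libraries numbered 3 (-0.32), with a range of -0.37 to 0.16 when 1 library was left out. BMI1 changed sign without normoxia replicate 3 (0.10, range -0.87 to 0.10). ABCG2 passed with upper-quartile factors (0.80, adjusted p = 0.0467), where the median of all tested genes was 0.19 against 0.03 with TMM. Requiring also a change of 1 or more on the log2 scale left 2373 higher and 768 lower genes, and SOX2 as the 1 lower marker. Leaving out 1 library gave between 3910 and 4991 genes higher and between 3561 and 4924 lower. The ratio of CD44 to CD24 was higher in hypoxia by 0.73 to 1.28 across 9 alternatives, and the exact tests used for it cannot reach 0.05 with these numbers of libraries. The causes were not tested. Counts of 3 or fewer limit ALDH1A1, NANOG and NODAL.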
